A study of Mus musculus with 4 samples.

Results

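The genes described here are the cytochromes P450 of the mouse, all rows of the count tables whose symbol begins with Cyp and a digit. There were 99 such rows among 21878 gene symbols, and 59 were kept because they had 10 or more raw counts in at least 2 of the 4 libraries. RNA had been sequenced from liver cells of C57BL/6 mice, sorted on magnetic columns for the surface protein CD24 and labelled as hepatocytes and liver progenitor cells. The HACY group had 2 libraries, from mice injected into the abdomen 3 times a week for 6 weeks with a cocktail of the small molecules Y-27632, A-83-01, which blocks TGF-beta type I receptors, and CHIR99021, which blocks glycogen synthase kinase 3. The CCL4 group had 2 libraries, from mice given carbon tetrachloride, a liver toxin dissolved in olive oil, for 6 weeks with 2 doses of 2 ml/kg each week. Mice were 8 weeks old at injection, per the treatment protocol, and no untreated or vehicle group was included. The labels do not make clear whether HACY mice had carbon tetrachloride too, nor whether each replicate was another animal. The p-values therefore reflect the spread among these libraries alone, which may be technical.

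Cytochromes P450 are haem enzymes that insert an oxygen atom into their substrates with electrons passed on by P450 reductase or, in mitochondria, by a ferredoxin. Families Cyp1 to Cyp3 oxidise drugs, pollutants and steroids and are among the most abundant enzymes of the hepatocyte, Cyp4 enzymes hydroxylate fatty acids and eicosanoids, and higher-numbered families carry out fixed steps of sterol, bile acid, vitamin D and retinoid metabolism. Receptors such as AHR, CAR, PXR and PPAR alpha turn many of them on when their ligands arrive, and liver-enriched factors such as HNF4A hold them on in mature hepatocytes. Carbon tetrachloride itself becomes toxic only after a P450, chiefly Cyp2e1, has turned it into a radical.

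Of the 59 kept genes 57 entered the test, edgeR's quasi-likelihood test over 13428 genes with a threshold of 0.05 on the adjusted p. In HACY relative to CCL4, 27 of the 57, or 47.4%, were higher and 2, or 3.51%, were lower. Over all genes tested 8.19% were higher and 3.54% lower, which is 1100 and 476 genes. Scaled by library size alone, 856 and 1355 of all genes were higher and lower, and 27 and 3 of the P450 genes. The median log2 fold change was 1.24 over the 57 genes and -0.01 over all genes tested. Counted by overlap, both HACY libraries lay above both CCL4 libraries for 42 of the 57 genes, or 73.7%, against 30.7% of all genes tested, and both lay below for 3, or 5.26%, against 30.1%. Cyp17a1, Cyp2c55 and Cyp4a32 were kept only because of their HACY counts and Cyp46a1 only because of its CCL4 counts, and without these 25 of 55 tested genes were higher and 2 lower. Leaving out HACY replicate 1 gave 21 higher, leaving out HACY replicate 2 gave 20, and leaving out CCL4 replicate 1 or 2 gave 30 and 29. In 14 of the 29 called genes the call held without each library in turn. A group with a library left out holds 1 library, which is assumed to vary like the pair of the other group. A call gained in that way, in a gene whose replicates differ, describes the library that remained and is not evidence of a group difference. A call lost in that way can come from the smaller test, so it does not show that the difference rested on 1 library. In these bulk libraries fewer cells of a type and less RNA per cell cannot be told apart.

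**Figure D1:**
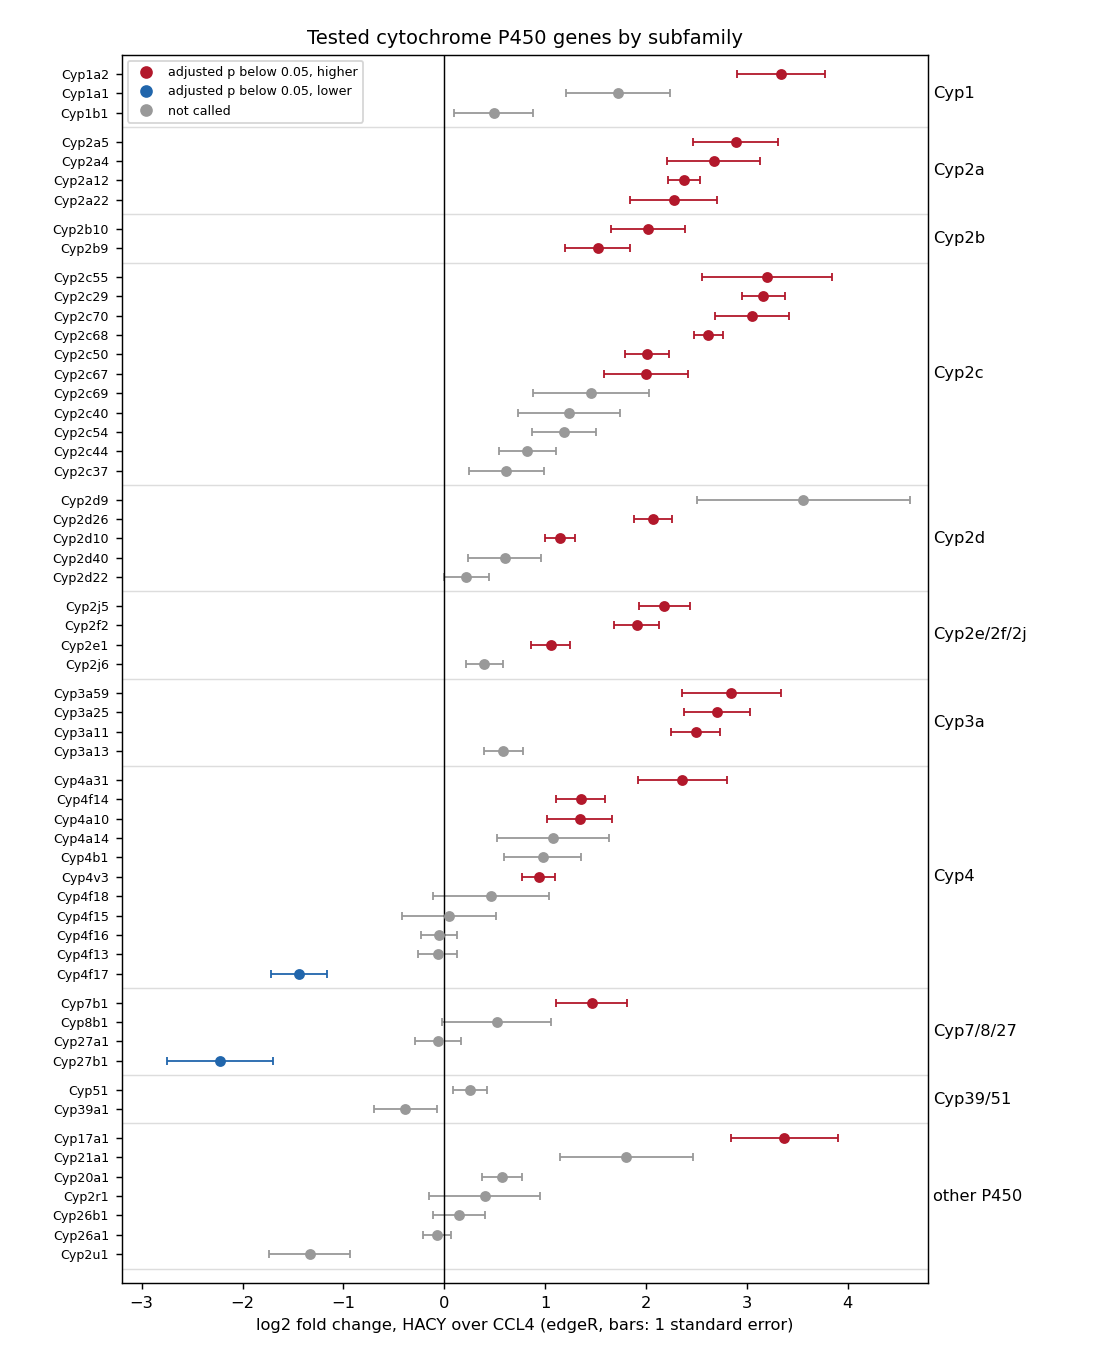
Log2 fold changes of HACY over CCL4 (horizontal axis) for the 57 tested P450 genes, grouped by subfamily, with bars of 1 standard error. The 27 genes called higher lie mostly in the Cyp2 and Cyp3a groups, and the 2 called lower are Cyp4f17 and Cyp27b1.

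The summed P450 level was 2104 and 2477 CPM (counts scaled to library size by TMM) in HACY replicates 1 and 2, against 1026 and 1021 CPM in CCL4 replicates 1 and 2. The mean was 2291 ± 264 CPM in HACY and 1023 ± 3.64 CPM in CCL4 (SD, n = 2), a ratio of 2.24. The sum hides different subfamilies. The Cyp2a sum was 5.47 times as high in HACY as in CCL4, that of Cyp2c 4.58 times, that of Cyp1 3.95 times, that of Cyp3a 3.87 times and that of Cyp2b 3.42 times. For Cyp2d the ratio was 2.65, for the Cyp2e, 2f and 2j group 2.34 and for Cyp4 1.44. The sums of Cyp39 with Cyp51 and of the remaining genes overlapped between the groups, at ratios of 1.11 and 1.08. For Cyp7, Cyp8 and Cyp27 the ratio was 0.810, with 44.7 and 61.7 CPM in HACY and 69.0 and 62.3 CPM in CCL4. Of these 4 genes only Cyp27b1 was called lower, and Cyp7b1 was called higher. The subfamily sums were not tested.

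**Figure D2:**
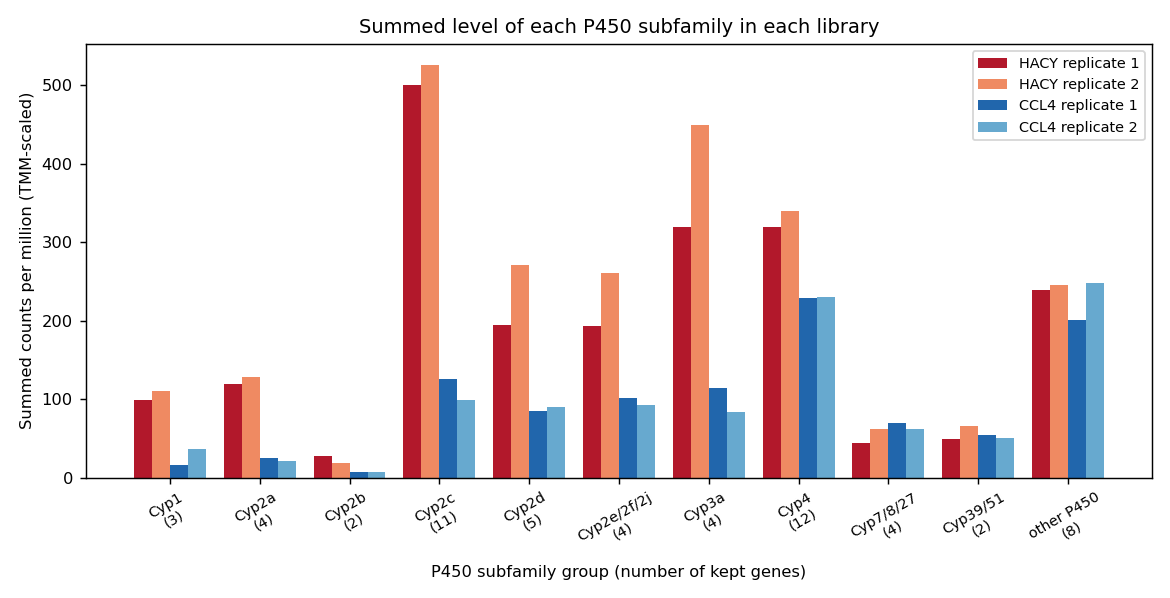
Summed CPM (vertical axis) of each P450 subfamily group in each of the 4 libraries, with the number of kept genes under each name. Cyp2c stood at 501 and 526 CPM in the HACY libraries and at 125 and 99.2 CPM in the CCL4 libraries, while the bars of the remaining genes (other P450) overlap.

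Compared per transcript length, in the deposited FPKM, the leading P450 gene was not the same in the groups. Cyp3a11 led in both HACY libraries, with 94.9 and 130 FPKM, and had 25.6 and 17.9 FPKM in the CCL4 libraries. Cyp2c29 came next in both HACY libraries, at 71.6 and 97.9 FPKM, and Cyp26a1, which breaks down retinoic acid, followed at 56.4 and 66.5 FPKM. Cyp26a1 led in both CCL4 libraries, at 71.9 and 67.5 FPKM, and made up 19.8% and 18.5% of their summed P450 FPKM, against 7.52% and 7.68% in the HACY libraries. Cyp2e1, usually a leading P450 of the liver, had 22.2 and 27.3 FPKM in HACY and 14.3 and 11.7 FPKM in CCL4.

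**Figure D3:**
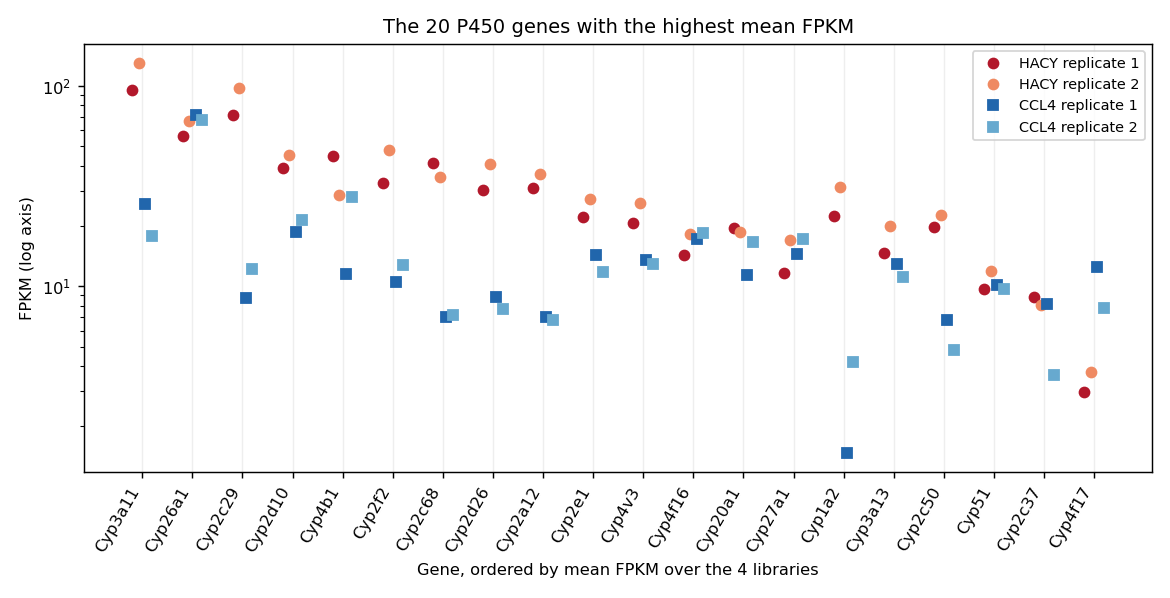
FPKM (log axis) in each library for the 20 P450 genes with the highest mean FPKM, HACY as circles and CCL4 as squares. Cyp3a11 and Cyp2c29 lie far above their CCL4 values in both HACY libraries, the 4 values of Cyp26a1 lie between 56.4 and 71.9, and Cyp4f17 lies below its CCL4 values.

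Among the Cyp1 genes, whose common inducer is the aryl hydrocarbon receptor AHR, 1 of 3 passed the test. Of all genes tested 11.7% passed. Cyp1a2, which oxidises aromatic amines and oestrogens (GRCm38 chromosome 9, 57676937 to 57683703), had 63.4 and 90.7 CPM in HACY, against 3.99 and 11.2 CPM in CCL4. The groups lay far apart, although the CCL4 libraries differed from each other. The increase was 10.1-fold (log2 3.34, SE 0.44, edgeR adjusted p = 0.00564). The call was lost without HACY replicate 1 (3.57, edgeR adjusted p = 0.0625) or HACY replicate 2 (3.06, edgeR adjusted p = 0.0530). The size depended on the CCL4 libraries, at 2.78 without CCL4 replicate 1 and 4.27 without CCL4 replicate 2, both still called. Cyp1a1, the most inducible of the family, had few counts, 35 and 22 in HACY and 10 and 9 in CCL4 (log2 1.72, SE 0.51, edgeR adjusted p = 0.0729). Cyp1b1, an oestradiol hydroxylase found mainly outside hepatocytes, had 33.1 and 18.6 CPM in HACY and 11.9 and 24.9 CPM in CCL4, which overlap (log2 0.49, edgeR adjusted p = 0.448).

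The start site of Cyp1a2 is shown with its TATA box in capitals, from 60 bases before the start to 10 bases into the transcript (RefSeq, GRCm38.p6, minus strand, chr9:57683646-57683715), beside that of Cyp27b1, the vitamin D gene that was lower in HACY (plus strand, chr10:127048186-127048255). Letters TATAAA or TATATA between 45 and 16 bases before the start were present in 11 of 47 kept genes with a promoter sequence, or 23.4%, and in 3.26% of 27025 promoters. Of the 11 genes 8 were called higher, against 23 of all 47, and Cyp27b1 was called lower. Cyp2a4 with Cyp2a5 and Cyp2a12 with Cyp2a22 share much of their sequence, so these pairs are not independent cases. Cyp2c55, also among the 8, was kept only because of its HACY counts.
Cyp1a2: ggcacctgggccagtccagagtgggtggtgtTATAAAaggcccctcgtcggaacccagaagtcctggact
Cyp27b1: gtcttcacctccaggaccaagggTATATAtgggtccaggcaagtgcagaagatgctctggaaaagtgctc

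All 4 tested Cyp2a genes were higher in HACY, with log2 fold changes between 2.27 and 2.89, against 8.19% of all genes tested. Cyp2a12, a steroid hydroxylase, had 82.0 and 98.0 CPM in HACY, against 18.1 and 16.5 CPM in CCL4 (log2 2.38, SE 0.16, edgeR adjusted p = 9.25e-04). Cyp2a5, the coumarin hydroxylase of mouse liver, had 8.96 and 9.93 CPM in HACY, against 0.758 and 1.77 CPM in CCL4 (log2 2.89, SE 0.42, edgeR adjusted p = 0.00803). These HACY replicates lay close together and well clear of CCL4. Both HACY libraries lay above both CCL4 libraries for 30.7% of all genes tested. Cyp2a4, which hydroxylates testosterone and is higher in female than male mouse liver, had 24.96 and 13.7 CPM in HACY, against 4.25 and 1.82 CPM in CCL4 (log2 2.67, SE 0.46, edgeR adjusted p = 0.0146). The value of Cyp2a5 was 3.63 without CCL4 replicate 2 and that of Cyp2a4 3.40 without CCL4 replicate 1. Cyp2a22 lost its call without HACY replicate 2 (log2 2.27 with all libraries; 1.88 without, edgeR adjusted p = 0.116).

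Cyp2a4 and Cyp2a5 lie on chromosome 7 and are close copies: 38.8% of the 50-base stretches in transcripts of Cyp2a4 and 37.0% in those of Cyp2a5 also occur in the other gene or another transcript, so how reads were divided between them is uncertain. Their start sites, again from 60 bases before the start to 10 bases after and with the TATA box in capitals, show how alike they are (RefSeq, GRCm38.p6, plus strand, chr7:26307132-26307201 and chr7:26835279-26835348).
Cyp2a4: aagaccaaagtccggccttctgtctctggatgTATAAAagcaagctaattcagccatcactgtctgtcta
Cyp2a5: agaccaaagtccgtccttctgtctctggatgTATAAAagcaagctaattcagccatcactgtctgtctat

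Both kept Cyp2b genes were higher, against 8.19% of all genes tested. Cyp2b10, the standard target of CAR, had 14.9 and 10.4 CPM in HACY, against 2.17 and 4.04 CPM in CCL4 (log2 2.02, SE 0.37, edgeR adjusted p = 0.0173). Cyp2b9, which is female-biased in mice, had 12.3 and 8.85 CPM in HACY and 4.40 and 2.96 CPM in CCL4 (log2 1.52, SE 0.32, edgeR adjusted p = 0.0274). HACY lay above CCL4 without overlap for both, as it did for 30.7% of all genes tested. Without HACY replicate 1 the calls of Cyp2b10 (log2 1.73) and Cyp2b9 (log2 1.26) were lost. CAR itself, Nr1i3, had only 7 and 6 counts in HACY and 21 and 15 counts in CCL4 (log2 -1.30, edgeR adjusted p = 0.173).

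The Cyp2c genes, most of which turn arachidonic acid into epoxides and hydroxy acids, made up the largest summed level in HACY. Of 11 tested 6 were higher and none lower, against 8.19% and 3.54% of all genes tested. Of the 6, Cyp2c55 was kept only because of its HACY counts. The median log2 fold change of the 11 genes was 2.00 and the lowest was 0.62, for Cyp2c37. Cyp2c29, an arachidonic acid epoxygenase (GRCm38 chromosome 19, 39269405 to 39330713), had 169 and 239 CPM in HACY, against 19.97 and 25.4 CPM in CCL4. The increase was 8.97-fold (log2 3.16, SE 0.21, edgeR adjusted p = 9.25e-04). Cyp2c68 had 112 and 98.0 CPM in HACY, against 17.1 and 17.0 CPM in CCL4 (log2 2.62, SE 0.15, edgeR adjusted p = 9.25e-04), with replicates close together in each group. Of the 50-base stretches of Cyp2c68 43.3% occur in another gene, mainly Cyp2c40, so how reads were divided is uncertain. Cyp2c70 makes muricholic acids, the hydrophilic bile acids of mice, from chenodeoxycholic acid. It had 22.6 and 25.3 CPM in HACY, against 1.77 and 3.99 CPM in CCL4 (log2 3.05, SE 0.37, edgeR adjusted p = 0.00389; 3.75 without CCL4 replicate 2). Cyp2c50 was also higher (log2 2.01, SE 0.22, edgeR adjusted p = 0.00304).

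The other members lost their call when a library was left out or were not called. Cyp2c67 lost its call without either HACY replicate, but its size changed little. The log2 fold change was 2.00 with all libraries, 2.12 without HACY replicate 1 and 1.86 without HACY replicate 2. Of the 50-base stretches of Cyp2c67 52.8% occur in another gene, so how reads were divided is uncertain. Cyp2c55, at 52 and 41 counts in HACY and 9 and 2 counts in CCL4, lost it without HACY replicate 1 (edgeR adjusted p = 0.0766), and its value of 3.20 became 4.62 or 2.49 without CCL4 replicate 1 or 2. Cyp2c54 had 17.2 and 22.4 CPM in HACY and 11.3 and 6.11 CPM in CCL4, just outside the threshold (log2 1.19, SE 0.32, edgeR adjusted p = 0.0545), and it passed without CCL4 replicate 1 (edgeR adjusted p = 0.0176) and by DESeq2 (adjusted p = 0.00563). Cyp2c37 and Cyp2c44, both eicosanoid producers, had log2 fold changes of 0.62 and 0.83 and were not called by edgeR. Without CCL4 replicate 1 both passed (1.35 and 1.27, edgeR adjusted p = 0.0197 and 0.0234), and Cyp2c44 also passed by DESeq2 (adjusted p = 0.0428).

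The promoters of several Cyp2c genes share a run of letters that is known as a binding element of HNF4A, the nuclear receptor of hepatocyte identity. The 9 letters CAAAGTCCA, searched on both strands from 250 bases before to 50 bases after the start, were in 7 of 47 kept genes with a promoter in the RefSeq table, or 14.9%, and in 0.477% of 27025 promoters. They stood in Cyp2c40, Cyp2c67, Cyp2c68, Cyp2c69, Cyp2c70, Cyp3a11 and Cyp8b1, always on the strand of the gene, and began between 125 and 45 bases before the start. Of these, Cyp2c67, Cyp2c68, Cyp2c70 and Cyp3a11 were called higher, and Cyp2c40, Cyp2c69 and Cyp8b1 were not. Of all 47 genes 23 were called higher. The 7 sites are shown with 25 bases on each side and the element in capitals (RefSeq, GRCm38.p6, all on the minus strand). They lie at chr19:39812826-39812884, chr19:39649134-39649192, chr19:39741145-39741203, chr19:39886811-39886869, chr19:40187317-40187375, chr5:145879930-145879988 and chr9:121916339-121916397, in the order printed. The surroundings of the sites in Cyp2c40, Cyp2c67, Cyp2c68 and Cyp2c69 are nearly the same sequence, and those of Cyp2c40 and Cyp2c69 are identical, so these 4 are not independent cases, while those of Cyp2c70, Cyp3a11 and Cyp8b1 differ.
Cyp2c40: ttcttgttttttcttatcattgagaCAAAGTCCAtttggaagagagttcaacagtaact
Cyp2c67: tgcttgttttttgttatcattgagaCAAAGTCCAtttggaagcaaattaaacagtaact
Cyp2c68: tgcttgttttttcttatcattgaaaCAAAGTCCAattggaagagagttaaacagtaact
Cyp2c69: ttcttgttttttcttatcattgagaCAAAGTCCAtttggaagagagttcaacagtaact
Cyp2c70: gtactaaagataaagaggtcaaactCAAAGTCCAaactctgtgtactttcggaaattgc
Cyp3a11: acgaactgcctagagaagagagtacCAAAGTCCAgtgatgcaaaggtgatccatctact
Cyp8b1: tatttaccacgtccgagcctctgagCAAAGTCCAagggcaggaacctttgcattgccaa

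A shorter run, AGGTCA, a unit of the sites to which many nuclear receptors bind, was in 11 of the 47 promoters, or 23.4%, and in 4335 of 27025, or 16%. Of the 11 genes 10 were called higher: Cyp2a4, Cyp2a5, Cyp2b9, Cyp2c29, Cyp2c70, Cyp2f2, Cyp2j5, Cyp3a11, Cyp3a25 and Cyp3a59. Cyp2a4 with Cyp2a5 and Cyp3a25 with Cyp3a59 are close copies with the letters at nearly the same places, so these pairs are not independent cases. The exception was Cyp2d40 (log2 0.60, edgeR adjusted p = 0.315). In all, 23 genes called higher had a promoter sequence, so 13 of them lacked these letters in this window. GCGTG, the core letters of an AHR response element, were in 23.4% of the 47 promoters and in 32.5% of 27025. They were in those of Cyp1a1 and Cyp1b1 and not in this window of Cyp1a2. A match is a run of letters and not a measured binding site, and no match speaks only of this window.

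Of 5 kept Cyp2d genes 2 were higher and none lower, against 8.19% and 3.54% of all genes tested. Cyp2d26 had 83.8 and 114 CPM in HACY, against 25.03 and 22.2 CPM in CCL4 (log2 2.07, SE 0.19, edgeR adjusted p = 0.00179). Cyp2d10 had 84.8 and 98.1 CPM in HACY, against 38.2 and 44.4 CPM in CCL4 (log2 1.15, SE 0.15, edgeR adjusted p = 0.00514). In both genes each HACY library was above each CCL4 library by a clear margin. HACY lay above CCL4 without overlap for 30.7% of all genes tested. Of the 50-base stretches of Cyp2d10 35.8% occur in another gene, mainly Cyp2d11, so how reads were divided is uncertain. Cyp2d22 and Cyp2d40 did not pass, with log2 fold changes of 0.22 and 0.60 (edgeR adjusted p = 0.549 and 0.315).

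Cyp2e1, Cyp2f2 and Cyp2j5 were higher, and Cyp2j6 was not called, against 8.19% higher among all genes tested. Cyp2e1, which activates carbon tetrachloride and oxidises ethanol in hepatocytes around the central vein, had 53.1 and 68.9 CPM in HACY, against 32.8 and 25.9 CPM in CCL4. Cyp2e1 was thus higher by 1.05 (log2, SE 0.19, edgeR adjusted p = 0.0176), and by 0.86 without HACY replicate 2 (edgeR adjusted p = 0.0892). Cyp2f2, which activates naphthalene and marks hepatocytes around the portal vein, had 76.5 and 115 CPM in HACY, against 23.0 and 28.1 CPM in CCL4 (log2 1.91, SE 0.22, edgeR adjusted p = 0.00360). Pericentral (Cyp2e1, Cyp1a2) and periportal (Cyp2f2) landmarks of the family were both among the genes called higher. Cyp2j5, an arachidonic acid epoxygenase, had 20.8 and 19.7 CPM in HACY, against 5.26 and 3.65 CPM in CCL4 (log2 2.18, SE 0.26, edgeR adjusted p = 0.00364).

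Of the Cyp3a genes Cyp3a11, Cyp3a25 and Cyp3a59 were higher and Cyp3a13 was not called, against 8.19% higher among all genes tested. Cyp3a11, the main drug-oxidising Cyp3a of mouse liver and a PXR target (GRCm38 chromosome 5, 145854426 to 145879964), had 241 and 345 CPM in HACY, against 61.9 and 42.1 CPM in CCL4 (log2 2.49, SE 0.24, edgeR adjusted p = 0.00221). Cyp3a25 had 20.6 and 26.2 CPM in HACY, against 4.65 and 2.51 CPM in CCL4 (log2 2.71, SE 0.33, edgeR adjusted p = 0.00390). Cyp3a59, a close copy of Cyp3a25, was measured at 3.28 and 3.29 CPM in HACY and 0.607 and 0.296 CPM in CCL4 (log2 2.85; 3.45 without CCL4 replicate 1). Cyp3a13 is also expressed outside the liver, in the intestine. It had 54.4 and 75.1 CPM in HACY and 47.2 and 39.04 CPM in CCL4 (log2 0.59, SE 0.19, edgeR adjusted p = 0.0951). HACY lay above CCL4 without overlap for all 4 genes, as it did for 30.7% of all genes tested.

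The Cyp4 genes were mixed: of 11 tested 4 were higher, 1 was lower and 6 were not called. The shares over all genes tested were 8.19% higher and 3.54% lower. Cyp4a10, a fatty acid omega-hydroxylase and PPAR alpha target, had 14.9 and 23.5 CPM in HACY, against 9.35 and 5.77 CPM in CCL4 (log2 1.34, SE 0.32, edgeR adjusted p = 0.0401). Of the 50-base stretches of Cyp4a10 29.8% and of Cyp4a31 20.6% occur in another gene, mainly Cyp4a32, so how reads were divided is uncertain. Cyp4a31 was higher by 2.36 (SE 0.44, edgeR adjusted p = 0.0189), while Cyp4a14, also a PPAR alpha target, was not called (1.08, SE 0.56, edgeR adjusted p = 0.242). Its CCL4 replicates had 10.7 and 2.61 CPM, and the value was 2.43 without CCL4 replicate 1 and 0.39 without CCL4 replicate 2. Cyp4f14, which inactivates the inflammatory lipid leukotriene B4, had 17.1 and 24.5 CPM in HACY, against 7.79 and 8.48 CPM in CCL4 (log2 1.35, SE 0.24, edgeR adjusted p = 0.0163). Cyp4v3, a fatty acid hydroxylase, had 84.7 and 110 CPM in HACY, against 53.1 and 48.4 CPM in CCL4 (log2 0.94, SE 0.16, edgeR adjusted p = 0.0143). These calls did not hold without each library in turn. Without HACY replicate 2 those of Cyp4a10, Cyp4f14 and Cyp4v3 were lost (edgeR adjusted p = 0.213, 0.110 and 0.0892), that of Cyp4a10 also without CCL4 replicate 2 (0.0594), and that of Cyp4a31 was lost without either HACY library (edgeR adjusted p = 0.0703 and 0.0765).

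Cyp4f17 went the other way. It had 12.5 and 17.0 CPM in HACY, against 49.7 and 30.5 CPM in CCL4 (log2 -1.44, SE 0.28, edgeR adjusted p = 0.0200; -1.25 without HACY replicate 1, edgeR adjusted p = 0.0620). Only 2.99% of the 50-base stretches of its transcripts are shared with another gene, mainly its neighbour Cyp4f16 on chromosome 17. Cyp4f16 itself had 36.3 and 48.9 CPM in HACY and 44.1 and 44.4 CPM in CCL4 (log2 -0.06, edgeR adjusted p = 0.873). Cyp4f13 and Cyp4f15, from the same stretch of the chromosome, had -0.06 and 0.05. Cyp4f18, a leukotriene-oxidising enzyme of neutrophils, had 3.82 and 2.33 CPM in HACY and 1.06 and 3.40 CPM in CCL4, which overlap. Cyp4b1 had 113 and 72.1 CPM in HACY and 28.5 and 65.8 CPM in CCL4 (log2 0.98, edgeR adjusted p = 0.140; 1.70 without CCL4 replicate 2, edgeR adjusted p = 0.0106).

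Among the 6 tested genes of families 7, 8, 27, 39 and 51, which act on bile acids, sterols and vitamin D, 1 was higher, 1 was lower and 4 were not called. Of all genes tested 8.19% were higher and 3.54% lower. Cyp7a1, the rate-limiting enzyme of the classic bile acid pathway, was not kept, with 2 and 1 counts in HACY and 1 and 4 counts in CCL4. Cyp8b1, which directs synthesis towards cholic acid, had 16 and 15 counts in HACY and 15 and 9 counts in CCL4. Cyp7a1 was too low for the test, and Cyp8b1 was not called (log2 0.52, SE 0.54, edgeR adjusted p = 0.565). Cyp27a1, the mitochondrial sterol 27-hydroxylase that opens the alternative pathway, had 33.6 and 52.5 CPM in HACY and 41.0 and 48.7 CPM in CCL4 (log2 -0.06, SE 0.23, edgeR adjusted p = 0.895). Cyp7b1, the oxysterol 7-alpha-hydroxylase of that pathway, had 4.53 and 6.24 CPM in HACY, against 2.07 and 1.82 CPM in CCL4 (log2 1.46, SE 0.35, edgeR adjusted p = 0.0399). Its call was lost without HACY replicate 1 (edgeR adjusted p = 0.109), HACY replicate 2 (0.288) or CCL4 replicate 1 (0.0583). Cyp39a1, which hydroxylates a brain-derived oxysterol, had 6.06 and 10.8 CPM in HACY and 11.2 and 10.7 CPM in CCL4 (log2 -0.38, edgeR adjusted p = 0.451). Cyp51, the lanosterol demethylase of cholesterol synthesis, had 43.0 and 55.4 CPM in HACY and 42.7 and 39.6 CPM in CCL4 (log2 0.26, SE 0.17, edgeR adjusted p = 0.355). Of 20 genes on the cholesterol synthesis list 0 were called by edgeR, DESeq2 or limma-voom, 3 had an unadjusted p under 0.05, and the median was -0.03.

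Cyp27b1, the mitochondrial enzyme that makes active vitamin D and is best known from kidney and macrophages, was lower in HACY. It had 5.63 and 2.16 CPM in HACY, against 25.2 and 11.3 CPM in CCL4 (GRCm38 chromosome 10, 127048250 to 127053006). HACY lay below CCL4 without overlap, as it did for 30.1% of all genes tested. The replicates of each group differed by over a factor of 2. On the log2 scale the change was -2.23 (SE 0.53, edgeR adjusted p = 0.0393). Without HACY replicate 2 it was -1.70 (edgeR adjusted p = 0.116) and without CCL4 replicate 1 -1.54 (edgeR adjusted p = 0.103), while without HACY replicate 1 it was -3.09. Cyp2r1, which carries out the preceding step in the liver, had 35 and 23 counts in HACY and 14 and 35 counts in CCL4, and Cyp24a1, which breaks active vitamin D down, had 1 count over all 4 libraries. The vitamin D receptor Vdr had 6.61 and 5.45 CPM in HACY and 3.03 and 4.63 CPM in CCL4 (log2 0.65, edgeR adjusted p = 0.237).

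The retinoic acid hydroxylases did not pass the test. Cyp26a1 had 98.5 and 121 CPM in HACY and 118 and 113 CPM in CCL4 (log2 -0.07, SE 0.14, edgeR adjusted p = 0.767). Cyp26b1 had 93.0 and 75.6 CPM in HACY and 54.9 and 97.2 CPM in CCL4 (log2 0.15, SE 0.26, edgeR adjusted p = 0.750; 0.62 without CCL4 replicate 2, edgeR adjusted p = 0.0388). Cyp26c1 had 1 or 2 counts in each library. Of steroid-making genes Cyp17a1, the 17-alpha-hydroxylase, had 50 and 36 counts in HACY and 4 and 5 counts in CCL4 (log2 3.37, SE 0.53, edgeR adjusted p = 0.0103), and its call was lost without HACY replicate 1 (edgeR adjusted p = 0.0573). Cyp21a1 had 21 and 73 counts in HACY and 16 and 14 counts in CCL4, but 23.8% of its 50-base stretches are shared, mainly with a pseudogene. Cyp20a1, whose substrate is not established, had 40.1 and 40.1 CPM in HACY and 22.4 and 31.6 CPM in CCL4 (log2 0.57, edgeR adjusted p = 0.106; 0.84 without CCL4 replicate 2, edgeR adjusted p = 0.0156). Cyp2u1, a fatty acid hydroxylase, had 20 and 19 counts in HACY and 58 and 52 counts in CCL4 (log2 -1.33, SE 0.40, edgeR adjusted p = 0.0740), and it was called lower when scaled by library size alone (-1.51, edgeR adjusted p = 0.0448).

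Some members had a high value in only 1 of the HACY libraries. Cyp2c69 had 33.0 CPM in HACY replicate 1 and 8.06 CPM in HACY replicate 2, against 7.84 and 7.15 CPM in CCL4. Cyp2c40 had 27.4 and 8.51 CPM in HACY replicates 1 and 2 and 8.80 and 6.41 CPM in CCL4. In both genes HACY replicate 1 alone stood apart. The edgeR adjusted p was 0.141 for Cyp2c69 and 0.153 for Cyp2c40 with all libraries. Without HACY replicate 1 the log2 fold changes were 0.10 and 0.16, and without HACY replicate 2 they were 2.14 and 1.85. Of the 50-base stretches of Cyp2c69 54.3% occur in another gene, and of those of Cyp2c40 60.3%, so how reads were divided between them is uncertain. Cyp2d9, the testosterone hydroxylase typical of male mouse liver, had 2.95 CPM in HACY replicate 1 and 28.9 CPM in HACY replicate 2, against 0.556 and 2.12 CPM in CCL4 (log2 3.56, SE 1.06, edgeR adjusted p = 0.0740). With HACY replicate 1 left out it stood at 4.42, and with HACY replicate 2 left out at 1.14.

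The sex of the mice is not given in the labels. Among genes of the Y chromosome, Ddx3y and Uty had 0 counts in every library, Eif2s3y 1 count in each HACY library and Kdm5d 1 count in HACY replicate 1. A count of 0 allows up to 3 counts, which is 0.148 to 0.170 CPM in these libraries, counting error alone considered. The male-typical Cyp4a12a had 1 and 1 counts in HACY and 0 in CCL4. Of the kept genes listed as male-biased, Cyp2d9 had 54 and 510 counts in HACY and Cyp7b1 83 and 110. Cyp2u1, listed with them, had 20 and 19 counts. Female-biased Cyp3a44 had 28 and 5 counts in HACY and 5 and 3 counts in CCL4, and Cyp2b13 had 20 and 9 counts in HACY and 8 and 0 counts in CCL4. Of the other genes listed as female-biased, Cyp2a4, Cyp2b9 and Cyp17a1 also had more counts in HACY replicate 1 than in HACY replicate 2. Cyp39a1 went the other way, with 111 and 190 counts in HACY, and Cyp3a16, Cyp3a41a and Cyp3a41b had 3 or fewer counts in every library. The part of sex or hormone state in these differences was not tested.

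**Figure D4:**
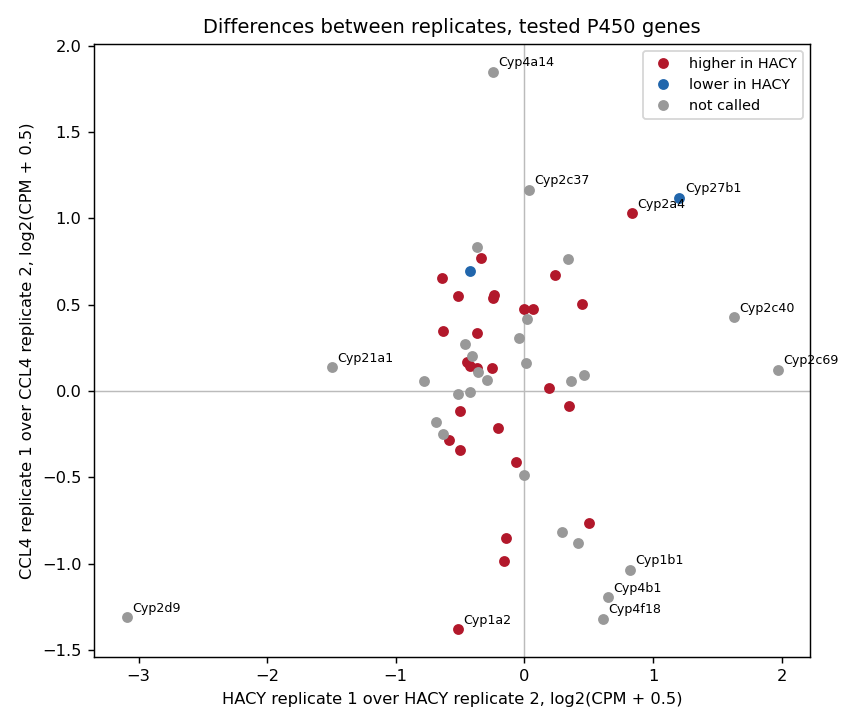
Difference between HACY replicates (horizontal axis) and between CCL4 replicates (vertical axis) for the 57 tested P450 genes, each on the scale of log2(CPM + 0.5), with genes named where either exceeds 1. Cyp2d9 lies far to the left and Cyp2c69 and Cyp2c40 to the right, apart from the cloud of genes called higher in HACY.

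The rule left out 40 rows. Of these 14 had 0 counts in every library, among them Cyp19a1 (aromatase), Cyp11b2 (aldosterone synthase) and Cyp2w1. Just outside the limit were 5 genes with 10 or more counts in 1 library only, namely Cyp2b13, Cyp2c38, Cyp2d34, Cyp2j9 and Cyp3a44. Just inside it were 4 with such counts in 2 libraries, namely Cyp17a1, Cyp2c55, Cyp4a32 and Cyp46a1. The counts of Cyp2d34 were 2 and 1 in HACY and 10 and 9 in CCL4, and those of Cyp46a1 5 and 5 in HACY and 10 and 10 in CCL4. Cyp4a32 and Cyp46a1 were the 2 kept genes that were too low for the test. Over the kept genes, 18 of the 58 found in the GENCODE transcripts shared 20% or more of their 50-base stretches with another gene.

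Electron donors and haem enzymes serve all or many P450 proteins. Of 10 electron donors and partners 2 were higher and none lower, against 8.19% and 3.54% of all genes tested. Their median log2 fold change was 0.09. Por, the reductase on which all microsomal P450 enzymes depend, had 1206 and 1303 CPM in HACY, against 864 and 930 CPM in CCL4 (log2 0.48, SE 0.12, edgeR adjusted p = 0.0434). Cyb5r3, which reduces cytochrome b5, had 355 and 405 CPM in HACY, against 242 and 261 CPM in CCL4 (log2 0.60, edgeR adjusted p = 0.0262). Neither call survived the loss of HACY replicate 1 (edgeR adjusted p = 0.164 for Por and 0.0669 for Cyb5r3), of HACY replicate 2 (0.283 and 0.205) or of CCL4 replicate 1 (0.114 and 0.0608). The mitochondrial donors Fdx1 and Fdxr had 0.09 and -0.08. Of 13 genes of haem synthesis and breakdown 0 were called by edgeR, DESeq2 or limma-voom and 2 had an unadjusted p under 0.05. Alas1, the enzyme that sets the rate of haem synthesis in liver, had 128 and 118 CPM in HACY and 137 and 124 CPM in CCL4.

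Receptors and transcription factors that control P450 genes were listed as well. Of 34 tested 1 was higher and 7 lower, against 8.19% and 3.54% of all genes tested. The median log2 fold change of the 34 was -0.30. Prox1, a partner of HNF4A, had -1.28 (SE 0.19, edgeR adjusted p = 0.00898), Foxa2 -0.98 (SE 0.18, edgeR adjusted p = 0.0185), Foxa3 -1.18 (SE 0.22, edgeR adjusted p = 0.0194) and Cebpa -0.90 (SE 0.15, edgeR adjusted p = 0.0130). Cebpb, an inflammation-responsive factor, had -1.56 (SE 0.39, edgeR adjusted p = 0.0449), with 45.001 and 37.9 CPM in HACY against 69.3 and 176 CPM in CCL4, and was at -0.74 without CCL4 replicate 2. The clock repressor Nr1d1 had -1.36 (SE 0.31, edgeR adjusted p = 0.0365). Tef, a clock-controlled factor, had -0.92 (SE 0.16, edgeR adjusted p = 0.0146). Leaving out either HACY library reduced the number lower to 3. The call of Prox1 held without each library, those of Foxa2 and Foxa3 were lost without HACY replicate 1 (edgeR adjusted p = 0.113 and 0.134), and those of Cebpa and Tef without HACY replicate 2 (0.1005 and 0.0874). Cebpb and Nr1d1 lost theirs without HACY replicate 1 (0.415 and 0.0971) or HACY replicate 2 (0.440 and 0.233), and Nr1d1 also without CCL4 replicate 1 (0.0730). Nr1h3, the oxysterol receptor LXR alpha, was the 1 factor called higher (1.01, SE 0.15, edgeR adjusted p = 0.00782; 0.0555 without HACY replicate 1). The receptors AHR and PXR and the factor HNF4A were not called. Ahr had 80.4 and 87.8 CPM in HACY and 72.4 and 90.7 CPM in CCL4, Nr1i2 (PXR) 4.59 and 12.0 CPM in HACY and 9.71 and 10.7 CPM in CCL4, and Hnf4a 78.3 and 143 CPM in HACY and 113 and 114 CPM in CCL4. Of 6 tested AHR targets outside the P450 family Ugt1a6a was higher (1.58, edgeR adjusted p = 0.0298; 0.230 and 0.0656 when HACY replicate 2 or CCL4 replicate 1 was left out), and so was Gsta1 (0.81, edgeR adjusted p = 0.0482, rising to 0.257, 0.0929 and 0.0812 when HACY replicate 1, HACY replicate 2 or CCL4 replicate 1 was left out). Tiparp, a direct AHR target, had 0.28 (edgeR adjusted p = 0.369) and Nqo1 0.03.

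Many markers of hepatocytes and macrophages, and some of endothelium, were higher in HACY too. Over all genes tested 8.19% were higher and 3.54% lower. Albumin (Alb), a hepatocyte product, stood at 24005 and 30357 CPM in HACY, against 6971 and 5497 CPM in CCL4. Its RNA was thus present in every library, but bulk libraries do not tell which cells it came from. Of 19 tested hepatocyte products outside the family 14 were higher and none lower, with a median log2 fold change of 1.30, and their summed level was 36281 to 44991 CPM in HACY and 11964 to 12884 CPM in CCL4. Kupffer cell and macrophage markers, of which 13 of 14 were higher, had a median of 1.61 and summed to 2741 to 3731 CPM in HACY and 1120 to 1327 CPM in CCL4 (9 and 10 higher without HACY replicate 1 or 2). Endothelial markers summed to 1530 to 2052 CPM in HACY and 669 to 1166 CPM in CCL4, with 4 of 11 higher and 1 lower (10 higher without CCL4 replicate 2, and 1 without HACY replicate 1 or CCL4 replicate 1). The biliary list had 2992 to 4359 CPM in HACY and 1249 to 2294 CPM in CCL4, most of it from Spp1, and 1 of 11 was higher and 1 lower (5 higher without CCL4 replicate 2). Neutrophil markers summed to 65.6 to 68.4 CPM in HACY and 62.6 to 365 CPM in CCL4, where CCL4 replicate 2 stood apart, with 2 of 11 lower (8 without CCL4 replicate 1, and 0 without either HACY library). B cell markers summed to 24.9 to 31.0 CPM in HACY and 26.9 to 27.7 CPM in CCL4, with 0 of 7 called and 0 at an unadjusted p under 0.05. T and NK cell markers summed to 4.21 to 5.05 CPM in HACY and 0.936 to 1.16 CPM in CCL4. Of these 2 were tested and 1 was higher. Red cell precursor markers summed to 5.02 to 9.99 CPM in HACY and 2.43 to 3.75 CPM in CCL4. Of these 2 were tested, 0 were called and 1 had an unadjusted p under 0.05. Both lists were low, and most of their genes were too low for the test. Stellate cell markers overlapped between groups, at 645 to 768 CPM in HACY and 392 to 894 CPM in CCL4, with 0 of 11 called by edgeR, 1 by DESeq2 and 1 at an unadjusted p under 0.05 (6 higher without CCL4 replicate 2, 3 lower without CCL4 replicate 1). No marker on these lists was at 0 in every library. Cd24a, the gene of the sorted protein, had 21.9 and 19.4 CPM in HACY and 20.7 and 38.0 CPM in CCL4 (edgeR adjusted p = 0.279). The part of the mix of cells in the P450 differences was not tested.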

How the data were processed

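RNA of CD24-sorted liver cells was made into stranded paired-end mRNA libraries, per the labels' protocols. Each library has a deposited table with raw counts per gene symbol and FPKM, which the authors scaled to transcript length and library size, per the file headers. The build mm10 and the programs DESeq, HTSeq, Cufflinks, HISAT2 and Trimmomatic are named, per the submitters' processing notes. Their versions, the annotation and the strand setting were "not given in the sources used here", and overlapping genes and close copies are uncertain. Totals were 19151738 and 18985478 counts in HACY and 18467299 and 19314219 in CCL4.

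The test on counts was that of edgeR 4.0.16 under R 4.3.3 (filterByExpr with minimum count 10 and total 15, TMM, robust quasi-likelihood, two-sided, treatment as the only term) and adjusted by Benjamini-Hochberg over 13428 genes. The 27 rows whose names a spreadsheet had turned into dates were left as they stand. The test left 2 residual degrees of freedom. Standard errors are the log2 fold change over the square root of F. No library is a copy: HACY replicates differed with a chi-square of 16.7 per degree of freedom and CCL4 replicates with 30.0. Levels were compared between genes in FPKM. Locations are from GENCODE M21, promoters from RefSeq (GRCm38.p6).

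The members and lists were chosen with earlier results of these data known. Values were given for up to 4 genes per subfamily with the smallest p, the one with the highest FPKM and set landmark genes. Other members were named after their values were seen. Alternatives tried were scaling by RLE, by upper quartile or by library size, no and stricter filters, DESeq2 1.42.0, limma-voom, limma 3.58.1 on log2(FPKM + 1) and log2(FPKM + 0.1) at a mean of at least 0.5 FPKM or unfiltered, a replicate block and each library left out.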

Additional observations from a re-analysis of the deposited data

How the results depend on the processing

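With all 4 libraries, 24 to 30 P450 genes were higher and 1 to 3 lower under every other scaling, filter and test, apart from limma on unfiltered FPKM, which called 0 P450 genes and 1 higher and 0 lower among all genes. The number lower was 1 with no filter, by limma-voom and on log2(FPKM + 0.1), where Cyp27b1 was lost. Without each library in turn it ranged from 1 to 2, and the number higher from 20 to 30. The P450 median was 0.83 on log2(FPKM + 1) and 0.77 on unfiltered FPKM, a scale that understates low genes. By library size alone the median of all genes was -0.18, 856 genes were higher and 1355 lower, the P450 median was 1.08, and the summed log2 ratios of Cyp2a and Cyp4 were 2.28 and 0.35, against 2.45 and 0.52 by TMM. Among all genes DESeq2 called 730 lower, FPKM 675 and 663 higher (pseudocounts 1 and 0.1), and leaving out a library gave 530 to 1840 higher and 99 to 1207 lower. Cyp26b1 changed sign by library size (-0.017) and on log2(FPKM + 1), filtered or not (-0.0030 in both), and without each library ranged from -0.20 to 0.62. Cyp26a1 ranged from -0.23 to 0.060 and Cyp27a1 from -0.41 to 0.22. No call was attached to any of these 3 genes in the main comparison.

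Same-numbered replicates are not said to be paired, and their deviations correlated at -0.119. A replicate block gave 26 higher and 2 lower P450 genes (893 and 331 of all genes). The crossed pairing, added after seeing the data, gave 38 higher and 3 lower (1843 and 1245). Cyp2d9 passed under the block (edgeR adjusted p = 0.00824) and Cyp4a10 and Cyp7b1 did not. Depth limits the precision for Cyp7a1, Cyp8b1 and Cyp46a1, which had 16 or fewer counts in every library.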
